A study of Mus musculus with 2 samples.

Results

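The genes of cholesterol and fatty acid synthesis were taken as a named set of 34 among the 32285 genes counted, and every member was found in the data by its symbol. They comprise 18 enzymes of the route from acetyl-CoA to cholesterol, 1 sterol carrier, 4 genes of the SREBP control system, 3 suppliers of acetyl-CoA or NADPH, and 8 enzymes that build, desaturate or elongate fatty acids. They are listed by their known function. Splenic CD8+ T cells of wild-type (WT) mice had been cultured for 30 h on plates coated with H-2Db, a mouse class I MHC molecule, carrying either of a pair of peptides. The stimulated groups were M9C at 0.2, 2 and 20 pmol and L6F at 80 and 20 pmol, and the last group was rested; a peptide-MHC stimulus is called pMHC below. Each group was 1 culture marked with its own hashtag antibody, a barcoded antibody that tells which culture a cell came from, and all 6 were run together in 1 lane of a droplet platform. The number of mice, the T cell receptor and the medium of the rested cells are not given in these sources. Cells had been sorted for viability, so nothing in the sort selected CD8. The study's title names the question as how T cells perceive antigen over long times through Erk and NFAT signalling.

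Cholesterol is made in animal cells from acetyl-CoA through mevalonate, farnesyl diphosphate, squalene and lanosterol, and fatty acids are made from the same acetyl-CoA by carboxylation and stepwise chain growth. The transcription factors SREBP1 and SREBP2 switch on many of these genes. They are held in the endoplasmic reticulum by INSIG while sterols are plentiful, and are escorted by SCAP to the Golgi for activation when sterols run low. T cells that leave quiescence and begin to divide need new membrane, and the SREBP pathway is known to be required for the growth of activated CD8+ T cells.

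The proximal promoters of 5 members are shown because each carries at least 1 of the motifs marked here, and because their genes lie at different points of the results below: Hmgcs1, Idi1, Cyp51 and Insig1 stood higher in stimulated cells and Elovl5 stood lower. Capitals mark the sterol regulatory element searched as TCACNCCAC, the CCAAT box, and the E-box CACGTG, each on both strands, so that a CCAAT box on the other strand reads ATTGG. The sequences are from RefSeq on GRCm38.p6, run 5′ to 3′ along the gene, and span 250 bases before to 50 bases after the annotated start.
Hmgcs1: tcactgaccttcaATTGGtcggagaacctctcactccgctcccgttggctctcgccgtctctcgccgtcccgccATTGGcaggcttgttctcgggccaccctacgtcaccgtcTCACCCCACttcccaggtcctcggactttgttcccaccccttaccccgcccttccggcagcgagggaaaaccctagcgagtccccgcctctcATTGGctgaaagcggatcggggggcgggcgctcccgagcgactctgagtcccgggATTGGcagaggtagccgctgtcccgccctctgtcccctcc
Idi1: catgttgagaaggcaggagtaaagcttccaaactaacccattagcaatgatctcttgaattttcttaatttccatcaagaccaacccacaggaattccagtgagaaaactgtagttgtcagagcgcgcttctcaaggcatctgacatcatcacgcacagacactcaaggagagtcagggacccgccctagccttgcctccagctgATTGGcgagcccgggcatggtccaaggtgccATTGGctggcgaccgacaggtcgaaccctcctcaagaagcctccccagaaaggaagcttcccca
Cyp51: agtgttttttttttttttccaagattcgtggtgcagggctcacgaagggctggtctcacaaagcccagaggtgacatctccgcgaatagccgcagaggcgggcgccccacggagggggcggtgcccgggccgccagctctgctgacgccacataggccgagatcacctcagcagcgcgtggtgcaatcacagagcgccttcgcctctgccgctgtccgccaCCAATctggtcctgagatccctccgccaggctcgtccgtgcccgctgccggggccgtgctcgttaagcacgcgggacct
Insig1: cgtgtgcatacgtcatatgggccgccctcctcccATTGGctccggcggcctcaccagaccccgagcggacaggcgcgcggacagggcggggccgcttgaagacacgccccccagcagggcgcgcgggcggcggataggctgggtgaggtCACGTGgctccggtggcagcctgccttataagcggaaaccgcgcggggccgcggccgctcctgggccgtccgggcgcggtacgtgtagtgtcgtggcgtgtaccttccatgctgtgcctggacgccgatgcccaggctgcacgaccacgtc
Elovl5: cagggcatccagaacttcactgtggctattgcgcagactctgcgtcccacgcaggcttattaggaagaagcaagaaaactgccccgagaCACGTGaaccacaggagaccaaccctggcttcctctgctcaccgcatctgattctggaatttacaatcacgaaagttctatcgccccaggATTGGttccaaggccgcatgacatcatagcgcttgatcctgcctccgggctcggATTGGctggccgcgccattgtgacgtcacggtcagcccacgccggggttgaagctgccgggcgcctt
These windows lie at chr13:119690101-119690400 (plus strand, Hmgcs1), chr13:8885356-8885655 (plus strand, Idi1), chr5:4104648-4104947 (minus strand, Cyp51), chr5:28071162-28071461 (plus strand, Insig1) and chr9:77917115-77917414 (plus strand, Elovl5). The sterol regulatory element of Hmgcs1 begins at base 114 of its window, and the window also holds 4 CCAAT boxes. Idi1 and Elovl5 hold 2 CCAAT boxes each, Cyp51 and Insig1 hold 1 each, and the E-box occurs once in Insig1 and once in Elovl5. Only the Hmgcs1 window holds the sterol regulatory element, and those of Idi1 and Cyp51 hold no marked motif but the CCAAT box.

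RefSeq gave promoters for 27 of the 34 members, 34 windows in all because some genes have several starts. A CCAAT box stood in 23 of the 34 member windows (67.6%), against 37.4% of all 32851 windows and 38.0% of the 8007 windows of genes at 10 CPM or more in any of the 6 cultures. Counted by gene, 22 of 27 members held one in at least 1 window (81.5%), against 43.2% of the 6334 expressed genes. The E-box stood in 20.6% of member windows, against 7.15% of all windows and 10.9% of those of expressed genes. The Scap windows overlap and hold the same E-box. Counted by gene, 6 of 27 members held an E-box (22.2%), against 12.7% of expressed genes. Among members at least 2-fold higher in all 5 stimulated cultures, 13 of 15 held a CCAAT box, against 9 of 12 other members. For the E-box these were 4 of 15 and 2 of 12, and a difference was not tested. The GC box GGGCGG, which often marks CpG-rich promoters, stood in 73.5% of member windows, against 64.6% of those of expressed genes. The strict sterol element stood in 1 member window (2.94%), against 1.24% of all windows. A match is a run of letters and not a shown binding site, and the Elovl5 promoter, whose gene stood lower in stimulated cells, carries CCAAT and E-box letters as that of Insig1 does.

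The count matrix held 13439 barcodes, of an initial sort of 22000 live cells (4000 from each pMHC culture and 2000 rested). Hashtags gave 11671 barcodes a single culture, and 10600 of these cells had 500 genes or more and no more than 10% of their UMIs (unique molecular identifiers, each counting 1 captured RNA) from mitochondrial genes. They were 1589, 1703 and 1869 cells at 0.2, 2 and 20 pmol M9C, 2207 and 2477 cells at 80 and 20 pmol L6F, and 755 rested cells. Stimulated cells gave more UMIs, with median UMIs per cell of 6050 to 7114 across the 5 pMHC cultures, against 1056 in rested cells. The filters removed 1.43% to 3.71% of the cells of the pMHC cultures and 52.3% of the rested cells. Cd8a stood at 382 to 441 CPM in the stimulated cultures, against 472 CPM in rested cells, so the labelled cell type was present throughout. The other T cell markers were higher in rested cells, with Cd8b1 at 332 to 506 CPM in stimulated cells, against 947 CPM in rested cells, and the sum of all 5 CD8 T cell markers at 1483 to 1612 CPM, against 3044 CPM. Markers of other cells differed in both directions. The summed level of 6 macrophage or monocyte markers was 2.67 to 26.4 CPM in stimulated cells, against 151 CPM in rested cells, with Adgre1 and C1qa at 0 there. The sum of 5 erythroid markers was 2.61 to 41.1 CPM in stimulated cells, against 159 CPM in rested cells. Likewise 3 markers of gamma-delta T cells summed to 54.6 to 101 CPM in stimulated cells, against 411 CPM in rested cells, with Sox13 at 0 there. Cells that held 3 or more UMIs of these markers were 2.52% to 5.98% of stimulated cells, against 3.71% of rested cells. The sum of 5 basophil or mast cell markers was 0.290 to 2.67 CPM in stimulated cells, against 15.2 CPM in rested cells. In the other direction, 4 NK cell markers summed to 13.1 and 15.9 CPM at 80 and 20 pmol L6F, against 3.26 CPM in rested cells. Their sums were 3.16, 3.84 and 2.17 CPM at 0.2, 2 and 20 pmol M9C, and Ncr1 and Klra8 were at 0 in rested cells. The 3 platelet markers summed to 0.918 to 7.99 CPM in stimulated cells, against 0 in rested cells. The 5 B cell markers summed to 208 to 258 CPM in stimulated cells, against 264 CPM in rested cells, and 20.01% to 23.3% of stimulated cells held 3 or more of their UMIs, at the median depths given above, against 0.530% of rested cells. The part of these cells in the results was not tested. Without cells that held 3 or more UMIs of myeloid, erythroid or platelet markers, a step added after seeing the data, the member counts given next were 19 to 22. That step left 746 of the 755 rested cells and 1863 of the 1869 cells at 20 pmol M9C.

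Stimulated CD8+ T cells gave 2.84 to 2.98 times as large a share of their transcripts to these genes as rested cells gave. UMIs were summed per culture and expressed as CPM, counts scaled to 1 common library total, so a level is relative to all RNA captured from that culture, and with 1 culture per condition no test between conditions was possible. The summed level of the 34 genes was 3016, 2960.0 and 2960.0 CPM at 0.2, 2 and 20 pmol M9C and 2992 and 2881 CPM at 80 and 20 pmol L6F, against 1013 CPM in rested cells. All 5 stimulated cultures lay close together and far above the rested one. The lowest ratio to rested cells was at 20 pmol L6F and the highest at 0.2 pmol M9C. All intervals given with ratios below are 95% intervals of counting error alone, and do not include the variation between cultures.

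Of the 31 members at 10 CPM or more in either culture, 20 were at least 2-fold higher at 0.2 pmol M9C, where 17.1% of all genes tested were, and 2 were at least 2-fold lower, where 16.4% of all genes were. At 2 pmol M9C 21 members were higher and 2 lower, against a background of 17.1% and 16.6% of all genes. At 20 pmol M9C 20 were higher and 2 lower, against 17.4% and 16.2%. For L6F, 22 were higher and 1 lower at 80 pmol, against 14.1% and 13.6%, and 22 were higher and 2 lower at 20 pmol, against 14.9% and 14.2%. The median log2 ratio of the measured members ranged from 1.39 to 1.48 over the 5 cultures, and that of all genes tested from 0.07 to 0.10. A gene can pass 10 CPM through its higher culture alone, as 4 members did through the stimulated culture and 1 through rested cells. Of the 26 members at 10 CPM or more in both cultures, 16 were at least 2-fold higher at 20 pmol M9C and 1 was lower, where 14.8% and 9.3% of all such genes were. The 5 comparisons share the same rested cells and are not independent of one another. When ribosomal protein, mitochondrial, Malat1 and Gm42418 UMIs were left out of the total, which moved the median of all genes to between -0.16 and -0.14, 17 to 19 members were at least 2-fold higher and 2 were lower.

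**Figure D1:**
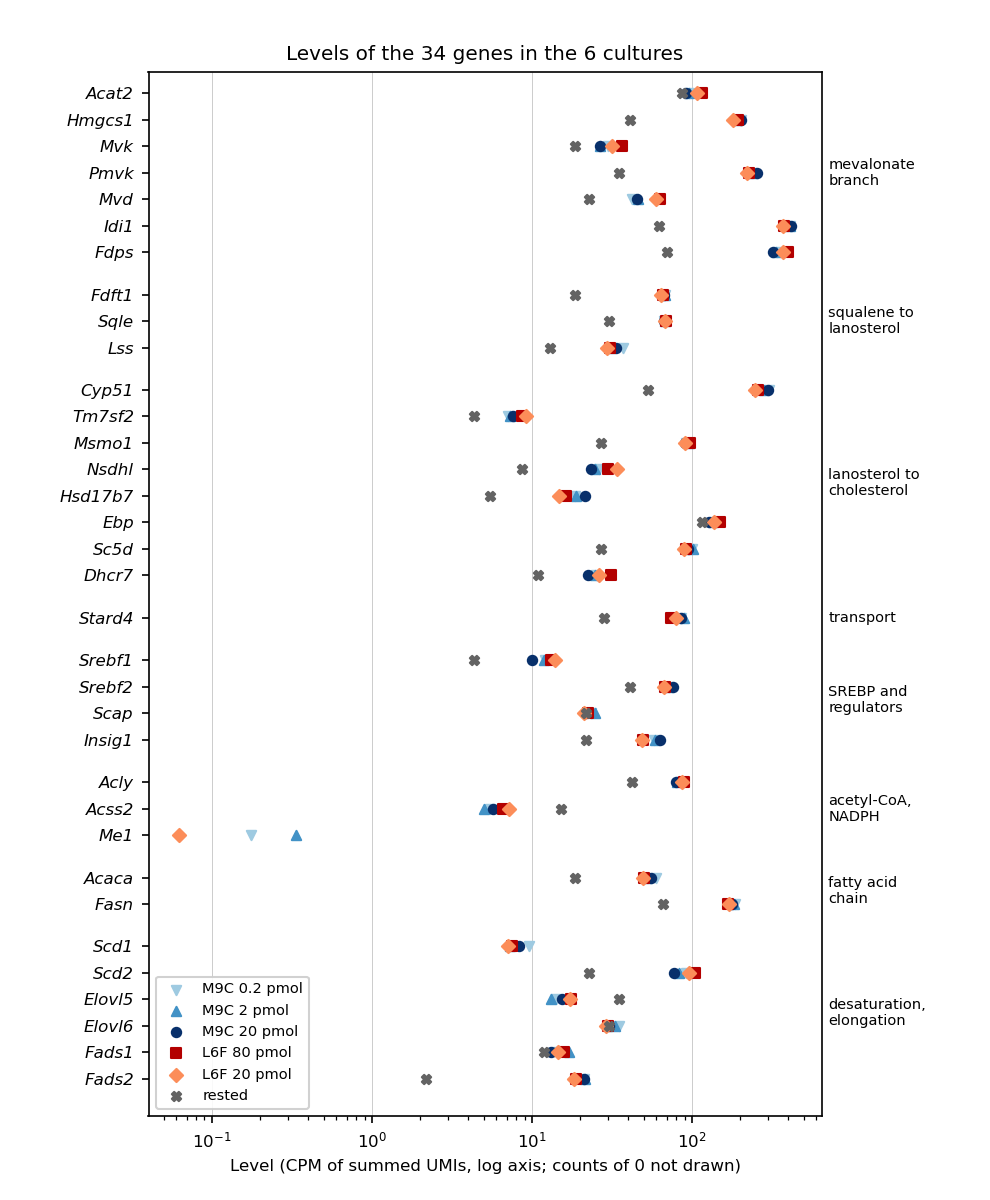
Level of each of the 34 genes in CPM (log axis) in the 3 M9C cultures, the 2 L6F cultures and the rested culture, arranged by role. Each symbol is 1 culture. For most genes the 5 stimulated symbols fall together to the right of the rested cross, while Acss2 and Elovl5 fall to its left and Acat2, Ebp, Scap, Elovl6 and Fads1 lie on or near it.

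The mevalonate branch, which makes isoprenoid units and joins them into farnesyl diphosphate, had the highest summed ratio of the groups of enzymes, 4.00-fold to 4.19-fold. Its 7 enzymes summed to 1346 to 1409 CPM over the stimulated cultures, against 336 CPM in rested cells, and 4 or 5 of the 7 were at least 2-fold higher in each. Pmvk, phosphomevalonate kinase, stood at 236, 242 and 256 CPM at 0.2, 2 and 20 pmol M9C and 228 and 222 CPM at 80 and 20 pmol L6F, against 34.8 CPM in rested cells. Its ratio at 20 pmol M9C was 7.34-fold (95% interval 5.19 to 10.7). Idi1, the isomerase that interconverts the isoprenoid units, stood at 412, 409 and 417 CPM at 0.2, 2 and 20 pmol M9C and 375 and 373 CPM at 80 and 20 pmol L6F, against 62.0 CPM in rested cells. It was 6.73-fold (5.18 to 8.89) higher at 20 pmol M9C and 6.01-fold (4.63 to 7.95) higher at 20 pmol L6F, with no overlap between the stimulated values and the rested one for either enzyme.

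Hmgcs1, the synthase that makes HMG-CoA, stood at 202, 192 and 203 CPM at 0.2, 2 and 20 pmol M9C and 194 and 179.9 CPM at 80 and 20 pmol L6F, against 41.4 CPM in rested cells. At 20 pmol M9C this was 4.90-fold (3.56 to 6.94) higher. Fdps, which makes farnesyl diphosphate, stood at 343, 335 and 323 CPM at 0.2, 2 and 20 pmol M9C and 396 and 371 CPM at 80 and 20 pmol L6F, against 69.6 CPM in rested cells, and was 4.64-fold (3.62 to 6.03) higher at 20 pmol M9C and 5.33-fold (4.17 to 6.93) higher at 20 pmol L6F. In the annotation Fdps overlaps the gene model Gm43738 on the same strand, so reads in their shared part cannot be given to either with certainty. Mvd, the mevalonate diphosphate decarboxylase, stood at 42.2, 46.2 and 45.6 CPM at 0.2, 2 and 20 pmol M9C and 63.6 and 60.0 CPM at 80 and 20 pmol L6F, against 22.9 CPM in rested cells. Both L6F values lay above all 3 M9C values, and Mvd was at least 2-fold higher at both L6F amounts and at 2 pmol M9C, and just under 2-fold higher at 20 pmol M9C. Mvk, mevalonate kinase, stood at 29.8, 26.8 and 26.6 CPM at 0.2, 2 and 20 pmol M9C and 36.6 and 31.7 CPM at 80 and 20 pmol L6F, against 18.5 CPM in rested cells, under 2-fold higher in every stimulated culture. Acat2, the thiolase of the first step, stood at 96.1, 96.6 and 92.5 CPM at 0.2, 2 and 20 pmol M9C and 116 and 108 CPM at 80 and 20 pmol L6F, against 87.1 CPM in rested cells. Its ratio was 1.06-fold (0.847 to 1.35) at 20 pmol M9C, the lowest of the 5, and 1.34-fold (1.07 to 1.69) at 80 pmol L6F, the highest, where the interval leaves out equality. Its near-identical paralog Acat3 was counted at under 1 CPM in every culture.

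Farnesyl diphosphate is committed to sterols by the squalene enzymes, and all 3 were at least 2-fold higher in every stimulated culture. Fdft1, squalene synthase, stood at 68.1, 67.9 and 67.4 CPM at 0.2, 2 and 20 pmol M9C and 65.7 and 64.1 CPM at 80 and 20 pmol L6F, against 18.5 CPM in rested cells. Sqle, squalene epoxidase, a known control point of the route, stood at 66.7, 67.8 and 67.3 CPM at 0.2, 2 and 20 pmol M9C and 68.8 and 67.7 CPM at 80 and 20 pmol L6F, against 30.5 CPM in rested cells. Lss, lanosterol synthase, stood at 37.2, 30.6 and 33.4 CPM at 0.2, 2 and 20 pmol M9C and 30.9 and 29.3 CPM at 80 and 20 pmol L6F, against 13.1 CPM in rested cells. Among the 3, Fdft1 had the highest ratio at 20 pmol M9C, 3.64-fold (2.26 to 6.28), and Sqle the lowest, 2.21-fold (1.52 to 3.34), with intervals that overlap. When only cells with at least 1000 genes were used, which left 47 rested cells, Sqle was no higher in stimulated cells, with a log2 ratio of -0.03 at 20 pmol M9C. Under that setting Dhcr7, Insig1, Stard4, Acaca and Fasn also fell short of 2-fold in all 5 stimulated cultures.

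The 8 enzymes that turn lanosterol into cholesterol were split in size of response. Cyp51, the demethylase that acts on lanosterol first, stood at 302, 284 and 298 CPM at 0.2, 2 and 20 pmol M9C and 259 and 247 CPM at 80 and 20 pmol L6F, against 53.3 CPM in rested cells. Its ratio at 20 pmol M9C was 5.58-fold (4.22 to 7.56), the highest of these enzymes. Msmo1, a methylsterol oxidase, stood at 91.6, 95.5 and 90.3 CPM at 0.2, 2 and 20 pmol M9C and 97.1 and 90.5 CPM at 80 and 20 pmol L6F, against 27.2 CPM in rested cells, 3.32-fold (2.24 to 5.15) higher at 20 pmol M9C. Sc5d, a sterol desaturase, stood at 100.3, 102 and 94.7 CPM at 0.2, 2 and 20 pmol M9C and 92.0 and 88.9 CPM at 80 and 20 pmol L6F, against 27.2 CPM in rested cells, 3.48-fold (2.35 to 5.40) higher at 20 pmol M9C. For these 3 enzymes every stimulated value was over 3 times the rested one.

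Nsdhl and Hsd17b7, which act together in removing the methyl groups, were low in rested cells. Nsdhl stood at 26.5, 24.8 and 23.5 CPM at 0.2, 2 and 20 pmol M9C and 30.0 and 33.9 CPM at 80 and 20 pmol L6F, against 8.71 CPM in rested cells, where 8 UMIs were counted. Hsd17b7 stood at 18.5, 18.8 and 21.6 CPM at 0.2, 2 and 20 pmol M9C and 16.2 and 14.8 CPM at 80 and 20 pmol L6F, against 5.44 CPM in rested cells, where 5 UMIs were counted. The rested counts leave the size of these ratios wide, 2.69-fold (1.35 to 6.30) for Nsdhl and 3.97-fold (1.68 to 12.3) for Hsd17b7 at 20 pmol M9C. Dhcr7, the reductase of the last step, stood at 25.2, 25.0 and 22.5 CPM at 0.2, 2 and 20 pmol M9C and 31.0 and 26.4 CPM at 80 and 20 pmol L6F, against 10.9 CPM in rested cells. Its ratio at 20 pmol M9C, 2.06-fold (1.11 to 4.35), lay just past 2-fold and fell short of it under several other settings. Ebp, the sterol isomerase, stood at 139, 136 and 128 CPM at 0.2, 2 and 20 pmol M9C and 149 and 138 CPM at 80 and 20 pmol L6F, against 115 CPM in rested cells. Like Acat2 it was well under 2-fold, from 1.11-fold (0.908 to 1.36) at 20 pmol M9C to 1.29-fold (1.06 to 1.59) at 80 pmol L6F, where the interval leaves out equality. Tm7sf2, a sterol reductase, stayed under 10 CPM in every culture, and it overlaps Vps51 on the same strand.

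Stard4, a carrier that moves cholesterol between membranes, stood at 86.1, 89.4 and 85.7 CPM at 0.2, 2 and 20 pmol M9C and 74.3 and 79.7 CPM at 80 and 20 pmol L6F, against 28.3 CPM in rested cells. It was 3.03-fold (2.06 to 4.66) higher at 20 pmol M9C, and with at least 1000 genes per cell its log2 ratios were 0.43 to 0.70. Among the control genes the pattern was mixed, with 2 of 4 at least 2-fold higher in every stimulated culture. Insig1, which retains the SREBP precursors and is itself a classic SREBP target, stood at 57.8, 59.1 and 63.5 CPM at 0.2, 2 and 20 pmol M9C and 49.2 and 49.0 CPM at 80 and 20 pmol L6F, against 21.8 CPM in rested cells. It was 2.92-fold (1.88 to 4.80) higher at 20 pmol M9C and 2.25-fold (1.45 to 3.70) higher at 20 pmol L6F, but with at least 1000 genes per cell its log2 ratios were 0.03 to 0.40. Srebf1, which encodes SREBP1, stood at 10.1 to 13.9 CPM over the stimulated cultures, against 4.35 CPM in rested cells (4 UMIs), and its ratio at 20 pmol M9C, 2.31-fold (0.882 to 8.61), has an interval that includes equality. Srebf2, which encodes SREBP2, stood at 71.6, 70.9 and 76.3 CPM at 0.2, 2 and 20 pmol M9C and 68.3 and 67.3 CPM at 80 and 20 pmol L6F, against 41.4 CPM in rested cells. That was under 2-fold in every stimulated culture, 1.85-fold (1.34 to 2.62) at 20 pmol M9C. With at least 1000 genes per cell the log2 ratios of Srebf2 were higher, 1.29 to 1.47, past 2-fold in all 5 stimulated cultures. Scap, the escort, stood at 23.4, 24.9 and 21.8 CPM at 0.2, 2 and 20 pmol M9C and 22.6 and 21.2 CPM at 80 and 20 pmol L6F, against 21.8 CPM in rested cells, a ratio of 1.000-fold (0.635 to 1.66) at 20 pmol M9C. With at least 1000 genes per cell the log2 ratios of Scap were -0.70 to -0.47.

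**Figure D2:**
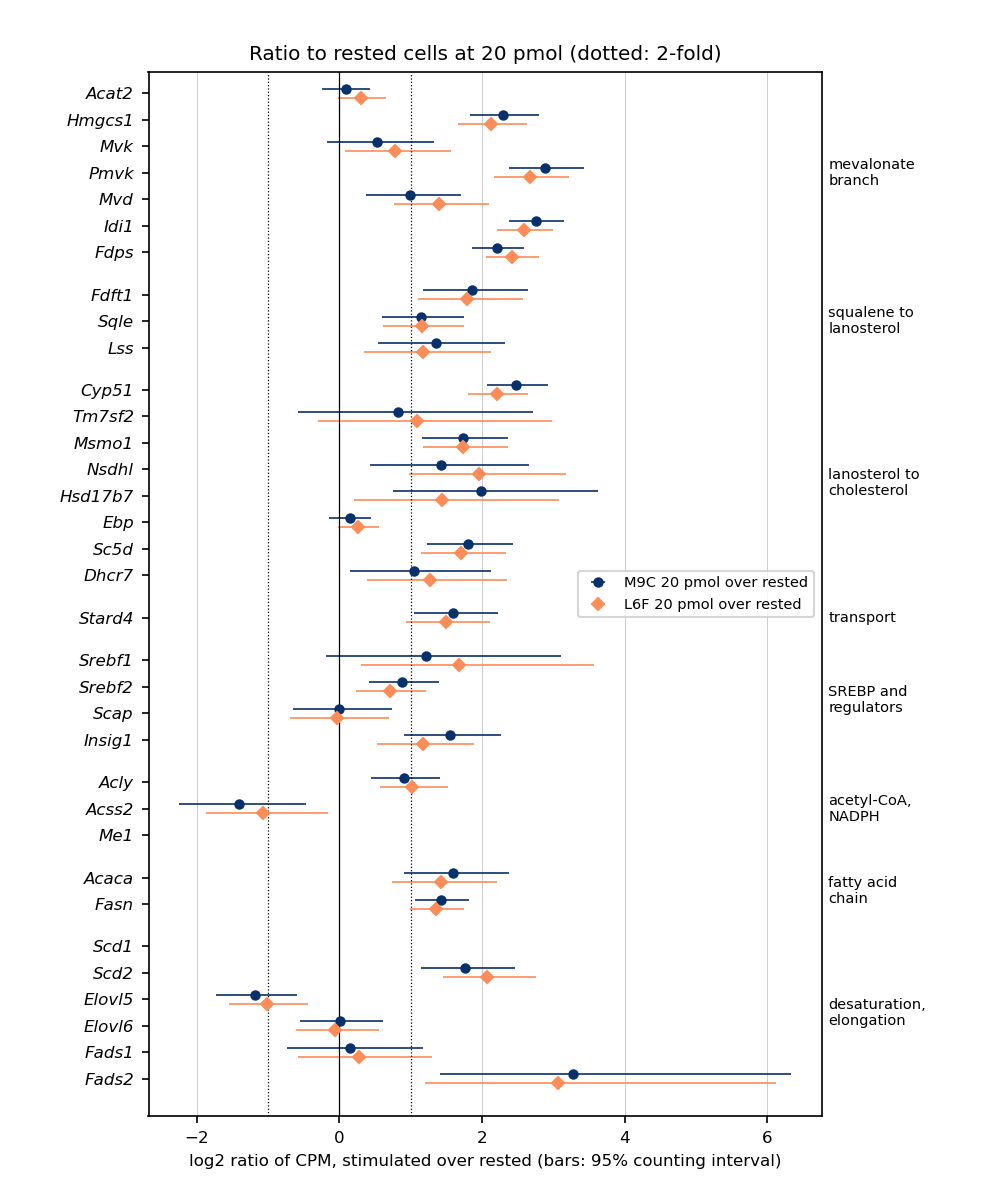
Log2 ratio of CPM to rested cells for each gene at 20 pmol M9C (circles) and 20 pmol L6F (diamonds), with bars for the 95% counting interval, the line at 0 for equality and dotted lines at 2-fold. Pmvk, Idi1 and Cyp51 lie far to the right at ratios of 5.58-fold to 7.34-fold for M9C, Acss2 and Elovl5 lie to the left of equality, and the bars of Fads2, Srebf1 and Tm7sf2 are wide because 4 UMIs or fewer were counted in rested cells. Me1 and Scd1 are not drawn because rested cells had no UMI of them.

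The suppliers of acetyl-CoA moved apart. Acly, the citrate lyase that makes cytosolic acetyl-CoA from citrate, stood at 84.3, 80.5 and 79.5 CPM at 0.2, 2 and 20 pmol M9C and 88.9 and 86.3 CPM at 80 and 20 pmol L6F, against 42.4 CPM in rested cells. The ratio passed 2-fold in both L6F cultures and fell short of it at the 3 M9C amounts, with 1.87-fold (1.36 to 2.65) at 20 pmol M9C and 2.03-fold (1.48 to 2.87) at 20 pmol L6F, intervals that overlap. Acss2, which makes acetyl-CoA from acetate, stood at 5.01 to 7.24 CPM over the stimulated cultures, against 15.2 CPM in rested cells (14 UMIs). It was at least 2-fold lower in each stimulated culture, 2.66-fold (1.39 to 4.75) lower at 20 pmol M9C. Counted as UMIs per cell Acss2 was higher in stimulated cells, by 1.90-fold to 2.53-fold over the stimulated cultures. Me1, the malic enzyme that makes NADPH, was nearly absent, at 0 to 0.334 CPM in stimulated cells. It was 0 in rested cells, where the 95% counting interval of a count of 0 reaches 4.01 CPM.

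Both enzymes of fatty acid chain synthesis were at least 2-fold higher in every stimulated culture. Acaca, the acetyl-CoA carboxylase of the committed step, stood at 59.3, 52.4 and 55.9 CPM at 0.2, 2 and 20 pmol M9C and 50.2 and 49.6 CPM at 80 and 20 pmol L6F, against 18.5 CPM in rested cells. It was 3.02-fold (1.87 to 5.22) higher at 20 pmol M9C. Fasn, fatty acid synthase, stood at 185, 183 and 179 CPM at 0.2, 2 and 20 pmol M9C and 167 and 169.5 CPM at 80 and 20 pmol L6F, against 66.4 CPM in rested cells, and was 2.69-fold (2.09 to 3.53) higher at 20 pmol M9C and 2.55-fold (1.98 to 3.35) higher at 20 pmol L6F. With at least 1000 genes per cell both fell short of 2-fold, with log2 ratios of 0.26 to 0.52 for Acaca and 0.80 to 0.94 for Fasn. The 3 M9C values of each lay above both L6F values by a small margin.

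Desaturation and elongation enzymes went in both directions. Scd2, a stearoyl-CoA desaturase, stood at 92.4, 83.5 and 77.6 CPM at 0.2, 2 and 20 pmol M9C and 104 and 95.7 CPM at 80 and 20 pmol L6F, against 22.9 CPM in rested cells. It was 3.39-fold (2.21 to 5.51) higher at 20 pmol M9C and 4.19-fold (2.73 to 6.79) higher at 20 pmol L6F. Scd1, its neighbour on chromosome 19 (44394455 to 44407879, minus strand, against 44293674 to 44306864, plus strand, for Scd2 on GRCm38), stood at 7.06 to 9.58 CPM in stimulated cells and had no UMI in rested cells. Set against the floor of 3 counts over the rested culture, that is 2.16-fold higher at 20 pmol L6F and 2.93-fold higher at 0.2 pmol M9C. The 95% counting intervals of these ratios begin lower, at 1.73-fold and 2.35-fold.

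Fads2, the desaturase that begins polyunsaturated fatty acid synthesis, stood at 21.2, 21.6 and 21.1 CPM at 0.2, 2 and 20 pmol M9C and 19.0 and 18.2 CPM at 80 and 20 pmol L6F, against 2.18 CPM in rested cells. Only 2 UMIs of it were counted in rested cells, so the ratio of 9.71-fold (2.66 to 80.6) at 20 pmol M9C is poorly bounded above. Fads1, the desaturase that follows it and a neighbour on chromosome 19 (10182888 to 10196877, plus strand, against 10062765 to 10101746, minus strand, for Fads2), stood at 13.2 to 17.1 CPM in stimulated cells, against 12.0 CPM in rested cells. Its ratio at 20 pmol M9C was 1.11-fold (0.603 to 2.26). At 20 pmol M9C the intervals of the neighbouring pair did not overlap, with a Fads2 interval that begins at 2.66-fold and a Fads1 interval that ends at 2.26-fold. Only 2 and 11 UMIs of these genes were counted in rested cells. Over the stimulated cultures the ratios were 8.38-fold to 9.93-fold for Fads2 and 1.11-fold to 1.43-fold for Fads1. The intervals of the pair were not set side by side in the other cultures, and a difference between the genes was not tested.

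Elovl5, which elongates polyunsaturated chains, stood at 14.2, 13.3 and 15.3 CPM at 0.2, 2 and 20 pmol M9C and 17.5 and 17.2 CPM at 80 and 20 pmol L6F, against 34.8 CPM in rested cells. Every stimulated value was below the rested one, by 2.27-fold (1.51 to 3.31) at 20 pmol M9C, and the ratio stopped just short of 2-fold at 80 pmol L6F. Counted as UMIs per cell Elovl5 was higher in stimulated cells, with a log2 ratio of 1.32 at 20 pmol M9C. Elovl6, which elongates saturated chains made by Fasn, stood at 35.2, 33.3 and 30.5 CPM at 0.2, 2 and 20 pmol M9C and 29.9 and 29.3 CPM at 80 and 20 pmol L6F, against 30.5 CPM in rested cells. It was level within counting error, 1.00-fold (0.682 to 1.53) at 20 pmol M9C. Over the 8 fatty acid genes the summed level was 401 to 432 CPM in stimulated cells, against 187 CPM in rested cells, a ratio of 2.14-fold to 2.31-fold. For the 18 sterol enzymes the summed ratio was 3.31-fold to 3.47-fold.

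Because stimulated cells gave more UMIs, the same transcripts were also counted per cell. A cell held a mean of 21.6, 20.8 and 20.5 member UMIs at 0.2, 2 and 20 pmol M9C and 18.7 and 18.6 at 80 and 20 pmol L6F, against 1.23 in rested cells, ratios of 15.1-fold to 17.5-fold. On that scale 91.5% of all genes were at least 2-fold higher at 0.2 pmol M9C, 91.0% at 2 pmol M9C, 90.7% at 20 pmol M9C, 91.8% at 80 pmol L6F and 91.8% at 20 pmol L6F, and 30 or 31 of the 31 measured members were. The median log2 ratio of all genes was 2.43 to 2.65 per cell, and that of the measured members was 3.80 to 4.04.

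To set cells side by side at 1 depth, each was thinned to 1000 UMIs, which left out 291 rested cells and 3 to 10 cells of each stimulated culture. The mean was then 3.03, 2.95 and 3.02 member UMIs at 0.2, 2 and 20 pmol M9C and 3.03 and 2.92 at 80 and 20 pmol L6F, against 0.948 in rested cells. The share of thinned cells with at least 1 member UMI was 91.7% to 93.7% over the stimulated cultures, against 58.4% (exact binomial interval 53.8% to 62.9%) in rested cells. Before thinning, 0.121% to 0.317% of stimulated cells and 35.5% of rested cells had none. The median thinned cell held 3 member UMIs in every stimulated culture and 1 in rested cells.

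**Figure D3:**
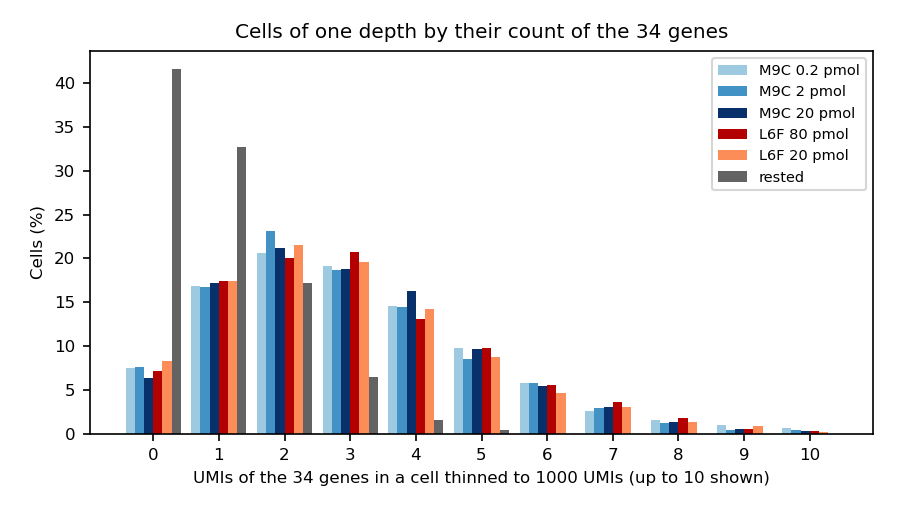
Percentage of cells (vertical axis) by the number of UMIs of the 34 genes they held after thinning to 1000 UMIs (horizontal axis), for the 5 stimulated cultures and, at the right of each group of bars, rested cells. Of rested cells 41.6% held none, and the stimulated cultures peak at 2 or 3 UMIs and reach 7 or more.

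Within a culture the summed level changed little between groups of cells set apart by depth. Cells of each culture were put in 4 equal groups by their UMI total. At 20 pmol M9C the summed level was 3169, 3085, 2917 and 2851 CPM from the shallowest to the deepest group. In the L6F culture at 20 pmol it was 2957, 2945, 2858 and 2839 CPM. Rested cells gave 1084, 944, 906 and 1082 CPM, with no direction beyond their counting intervals. The deepest rested group, at 1082 CPM, had a median of 1476 UMIs. The shallowest group at 20 pmol M9C, at 3169 CPM, had a median of 3697 UMIs. With at least 1000 genes per cell, 47 rested cells were left. The log2 ratio of the summed members at 20 pmol M9C was then 1.13, against 1.55 with the filter used. The median of all genes was then -0.18, against 0.10. The part of depth in these ratios was not tested.

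**Figure D4:**
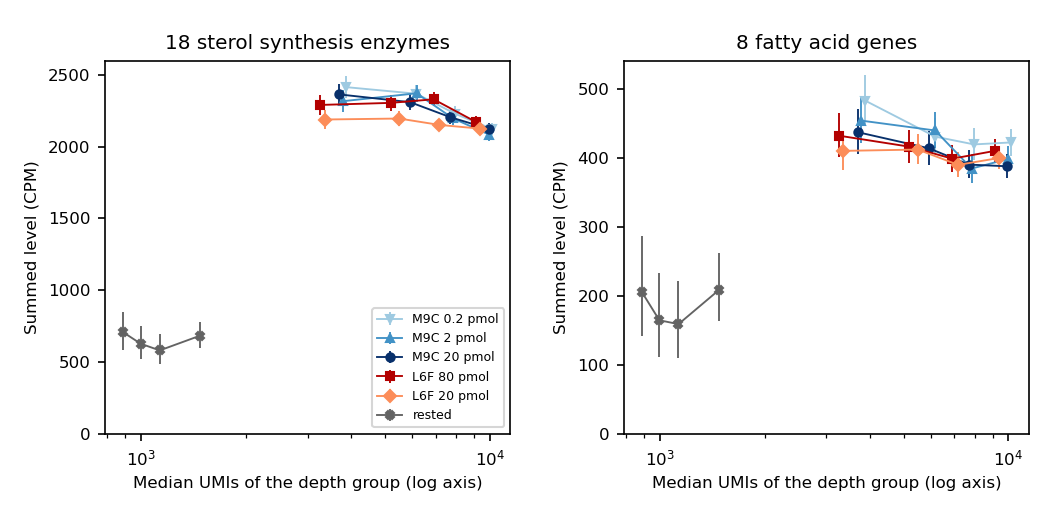
Summed CPM of the 18 sterol enzymes (left) and the 8 fatty acid genes (right) in 4 groups of each culture's cells by UMI total, against the median UMIs of the group on a log axis, with bars for 95% Poisson intervals. The stimulated cultures lie together at the top with a shallow decline in depth, and the 4 rested groups lie at 579 to 705 CPM for sterol enzymes and 159 to 208 CPM for fatty acid genes.

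Differences between amounts of the same pMHC were small in size. No member passed 2-fold between 20 and 0.2 pmol M9C in either direction, where 0.272% of all genes were higher and 0.143% lower, and none did between 80 and 20 pmol L6F, where 0.0% of all genes were higher and 0.0% lower. Over the 100-fold range of M9C, the highest log2 ratio of 20 over 0.2 pmol was 0.22 (-0.04 to 0.48) for Hsd17b7, and that of Insig1 was 0.13 (-0.02 to 0.28). The lowest were -0.27 (-0.63 to 0.09) for Srebf1 and -0.25 (-0.38 to -0.13) for Scd2. Scd2 was the clearest of these, with values of 92.4, 83.5 and 77.6 CPM at 0.2, 2 and 20 pmol M9C that fall in order of amount. Between 80 and 20 pmol L6F the ratios ran from -0.18 (-0.36 to 0.01) for Nsdhl to 0.24 (0.04 to 0.43) for Dhcr7.

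M9C and L6F at the same 20 pmol differed by less than 2-fold for every member. At that call 0.884% of all genes were higher with M9C and 0.756% were lower, so a count of 0 among 30 measured members is close to the background. Smaller differences went in both directions, also within single steps of the route. The highest log2 ratio of M9C over L6F was 0.55 (0.29 to 0.80) for Hsd17b7, and the lowest was -0.53 (-0.74 to -0.33) for Nsdhl, and both encode enzymes of the same demethylation step. Insig1 followed on the M9C side at 0.37 (0.23 to 0.52), then Cyp51 at 0.27 (0.21 to 0.34). On the L6F side stood Srebf1 at -0.47 (-0.79 to -0.15), Mvd at -0.40 (-0.55 to -0.25) and Scd2 at -0.30 (-0.42 to -0.19). The counting intervals of these genes leave out equality, but with 1 culture per condition they say nothing of the spread between cultures.

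Across all amounts, all 3 M9C cultures lay above both L6F cultures for 13 of the 30 members at 10 CPM or more in a stimulated culture (43.3%), where 31.0% of all genes did. These were Pmvk, Idi1, Fdft1, Cyp51, Hsd17b7, Sc5d, Srebf2, Insig1, Stard4, Acaca, Fasn, Elovl6 and Fads2. All 3 M9C cultures lay below both L6F cultures for 10 members (33.3%), where 26.2% of all genes did. These were Acly, Acat2, Mvk, Mvd, Fdps, Nsdhl, Dhcr7, Srebf1, Scd2 and Elovl5, and the other 7 overlapped. Neither share is read as a result about these genes, given how common such a separation was. Insig1 shows the size of such a gap, with 57.8, 59.1 and 63.5 CPM at 0.2, 2 and 20 pmol M9C and 49.2 and 49.0 CPM at 80 and 20 pmol L6F.

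**Figure D5:**
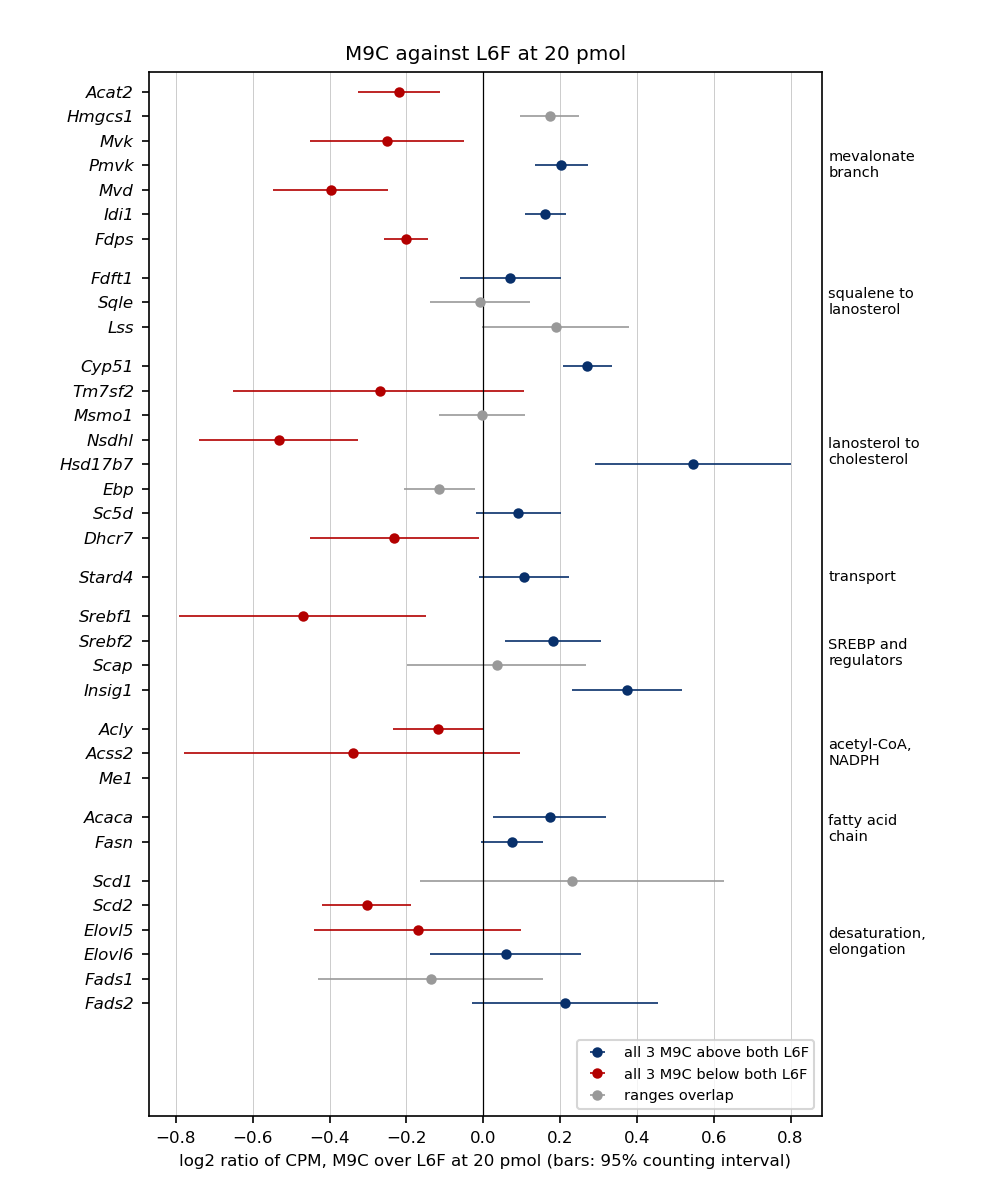
Log2 ratio of CPM, M9C over L6F at 20 pmol, for each gene with its 95% counting interval. Colours mark genes whose 3 M9C cultures all lay above both L6F cultures (blue), all lay below (red) or overlapped (grey), Acss2, Tm7sf2 and Scd1 are drawn although under 10 CPM in stimulated cells, and the ratios run from -0.53 for Nsdhl to 0.55 for Hsd17b7.

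The neighbouring parts of lipid metabolism were read from 6 further lists with no gene in common with the 34, and the counts given for 5 of them are set against the same background of 17.4% of all genes higher and 16.2% lower at 20 pmol M9C. The list of other genes of sterol synthesis, SREBP processing and uptake is given by its 2 lowest genes at 20 pmol M9C. Hsd11b1, a glucocorticoid-activating reductase, stood at 1.34 to 2.47 CPM in stimulated cells, against 39.2 CPM in rested cells, and was 18.1-fold (10.7 to 30.7) lower at 20 pmol M9C. Without the cells that held markers of other types, which left 746 of the 755 rested cells, it was 18.9-fold lower. The part of other cell types in this ratio was not tested. Mbtps1, a protease that activates the SREBPs, was the next lowest, with 25.0, 22.4 and 22.5 CPM at 0.2, 2 and 20 pmol M9C and 22.6 and 22.6 CPM at 80 and 20 pmol L6F, against 26.1 CPM in rested cells.

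The isoprenoid branches that leave farnesyl diphosphate were nearly level, with 3 of 13 measured genes at least 2-fold higher, none lower, and a median log2 ratio of 0.28 at 20 pmol M9C. Of the 10 at 10 CPM or more in both cultures, 2 were higher, where 14.8% of all such genes were. Pdss1, which builds the tail of coenzyme Q, stood at 23.6, 25.8 and 22.7 CPM at 0.2, 2 and 20 pmol M9C and 22.5 and 22.7 CPM at 80 and 20 pmol L6F, against 6.53 CPM in rested cells, 3.47-fold (1.58 to 9.54) higher. Without the cells that held markers of other types, Pdss1 was 4.96-fold higher at 20 pmol M9C. Rabggtb, a subunit of the transferase that prenylates Rab proteins, stood at 64.1, 58.5 and 62.2 CPM at 0.2, 2 and 20 pmol M9C and 46.5 and 51.6 CPM at 80 and 20 pmol L6F, against 28.3 CPM in rested cells, while its partner subunit Rabggta stood at 13.0, 14.9 and 15.6 CPM at 0.2, 2 and 20 pmol M9C and 11.8 and 12.1 CPM at 80 and 20 pmol L6F, against 19.6 CPM in rested cells. Nus1, of the dolichol branch, named after its values were seen, was the other gene past 2-fold, with 69.3, 70.4 and 70.0 CPM at 0.2, 2 and 20 pmol M9C and 60.7 and 61.2 CPM at 80 and 20 pmol L6F, against 34.8 CPM in rested cells. Ggps1, which makes geranylgeranyl diphosphate, stood at 24.3, 21.1 and 21.9 CPM at 0.2, 2 and 20 pmol M9C and 24.5 and 23.7 CPM at 80 and 20 pmol L6F, against 25.0 CPM in rested cells.

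Among genes of cholesterol efflux, storage and oxysterols, none of the 12 measured at 20 pmol M9C was at least 2-fold higher and 4 were lower. All 4 reached 10 CPM in rested cells alone, and of the 8 at 10 CPM or more in both cultures none passed 2-fold in either direction, with a median log2 ratio of -0.43. Abcg1, an exporter of cholesterol, stood at 2.02, 1.75 and 1.16 CPM at 0.2, 2 and 20 pmol M9C and 4.64 and 3.50 CPM at 80 and 20 pmol L6F, against 12.0 CPM in rested cells, 10.3-fold (4.28 to 24.0) lower at 20 pmol M9C. Apoe, a lipid-carrying apolipoprotein, stood at 2.99, 1.75 and 1.24 CPM at 0.2, 2 and 20 pmol M9C and 2.39 and 1.56 CPM at 80 and 20 pmol L6F, against 21.8 CPM in rested cells, 17.6-fold (8.65 to 36.3) lower. Apoe is abundant in macrophages, whose markers were also higher in the rested culture as given above. Without the cells that held markers of other types, which left 746 of the 755 rested cells, Apoe was 17.5-fold lower. The part of macrophage RNA in this ratio was not tested. Mylip, a ubiquitin ligase induced by liver X receptors, and Npc1, which moves cholesterol out of lysosomes, were named after their values were seen. Mylip stood at 1.58, 1.75 and 1.86 CPM at 0.2, 2 and 20 pmol M9C and 1.74 and 2.00 CPM at 80 and 20 pmol L6F, against 10.9 CPM in rested cells, and Npc1 at 6.24, 6.34 and 5.34 CPM at 0.2, 2 and 20 pmol M9C and 10.8 and 9.62 CPM at 80 and 20 pmol L6F, against 17.4 CPM in rested cells. The highest ratios of the list were those of Lpcat3, with 48.8, 49.4 and 49.8 CPM at 0.2, 2 and 20 pmol M9C and 50.9 and 45.1 CPM at 80 and 20 pmol L6F, against 39.2 CPM in rested cells, and Osbp, with 26.7, 23.5 and 26.0 CPM at 0.2, 2 and 20 pmol M9C and 30.1 and 27.4 CPM at 80 and 20 pmol L6F, against 28.3 CPM in rested cells.

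Among other genes of fatty acid synthesis and activation, 6 of 16 measured were at least 2-fold higher at 20 pmol M9C, none lower, and the median log2 ratio was 0.89. Fabp5, a fatty acid carrier, stood at 656, 667 and 625 CPM at 0.2, 2 and 20 pmol M9C and 679.8 and 704 CPM at 80 and 20 pmol L6F, against 82.7 CPM in rested cells, 7.56-fold (6.03 to 9.60) higher. Without the cells that held markers of other types, Fabp5 was 9.26-fold higher at 20 pmol M9C. Acsl4, which activates long polyunsaturated chains, stood at 69.4, 64.3 and 65.6 CPM at 0.2, 2 and 20 pmol M9C and 56.2 and 59.9 CPM at 80 and 20 pmol L6F, against 21.8 CPM in rested cells, 3.01-fold (1.94 to 4.96) higher. The lowest of the list were Mlxip, with 9.32, 13.3 and 12.9 CPM at 0.2, 2 and 20 pmol M9C and 12.0 and 11.2 CPM at 80 and 20 pmol L6F, against 16.3 CPM in rested cells, and Acsl1, with 10.9, 10.6 and 10.5 CPM at 0.2, 2 and 20 pmol M9C and 13.9 and 11.9 CPM at 80 and 20 pmol L6F, against 12.0 CPM in rested cells. For glycerolipid and phospholipid synthesis 5 of 21 were higher, 1 lower, which reached 10 CPM in rested cells alone, and the median log2 ratio was -0.14. Pcyt2, of phosphatidylethanolamine synthesis, stood at 116, 109.7 and 112 CPM at 0.2, 2 and 20 pmol M9C and 120.0 and 116 CPM at 80 and 20 pmol L6F, against 41.4 CPM in rested cells, and Agpat5, an acyltransferase, at 118, 118 and 126 CPM at 0.2, 2 and 20 pmol M9C and 100.5 and 103 CPM at 80 and 20 pmol L6F, against 46.8 CPM in rested cells. Agpat3, Gpat4 and Crls1, named after their values were seen, were the others past 2-fold. Lpin1, a phosphatidate phosphatase and coactivator of fat oxidation, stood at 3.52, 3.25 and 3.56 CPM at 0.2, 2 and 20 pmol M9C and 6.09 and 6.24 CPM at 80 and 20 pmol L6F, against 17.4 CPM in rested cells, 4.89-fold (2.58 to 8.80) lower, and Etnk1, an ethanolamine kinase, at 47.4, 48.5 and 50.6 CPM at 0.2, 2 and 20 pmol M9C and 57.9 and 56.6 CPM at 80 and 20 pmol L6F, against 84.9 CPM in rested cells.

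Fatty acid oxidation genes lay near level as a list. Of 18 measured genes none was at least 2-fold higher at 20 pmol M9C, 1 was lower, which reached 10 CPM in rested cells alone, and the median log2 ratio was -0.15. Etfb, which carries electrons from oxidation to the respiratory chain, stood at 310.0, 319 and 305 CPM at 0.2, 2 and 20 pmol M9C and 327 and 325 CPM at 80 and 20 pmol L6F, against 171 CPM in rested cells, 1.79-fold (1.52 to 2.11) higher. Eci1, an enoyl-CoA isomerase, stood at 36.8, 36.8 and 34.6 CPM at 0.2, 2 and 20 pmol M9C and 36.3 and 37.3 CPM at 80 and 20 pmol L6F, against 28.3 CPM in rested cells. Mlycd, which breaks down malonyl-CoA, the product of Acaca, stood at 6.59, 9.26 and 6.50 CPM at 0.2, 2 and 20 pmol M9C and 8.41 and 9.24 CPM at 80 and 20 pmol L6F, against 26.1 CPM in rested cells, 4.02-fold (2.44 to 6.39) lower. Cpt1a, which admits long chains to mitochondria and is blocked by malonyl-CoA, stood at 7.56, 9.68 and 8.98 CPM at 0.2, 2 and 20 pmol M9C and 13.6 and 10.7 CPM at 80 and 20 pmol L6F, against 17.4 CPM in rested cells, 1.94-fold (1.07 to 3.28) lower. Without the cells that held markers of other types, Etfb was 2.11-fold higher and Cpt1a 2.03-fold lower at 20 pmol M9C. Both thus passed 2-fold under that step, and the part of other cell types in these ratios was not tested. Over the 5 stimulated cultures the median log2 ratio of the oxidation list lay between -0.15 and 0.09, and that of the measured sterol enzymes between 1.71 and 1.79.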

How the data were processed

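The deposited matrix held whole-number counts of UMIs per gene and per hashtag for each barcode, which the submitters' processing notes tie to Cell Ranger 6.0.1, bcl2fastq and the mouse build GRCm38 (mm10). A deposited table ties each hashtag to its culture. The gene annotation used for counting is not given in the sources used here, and gene positions are from GENCODE vM21. A barcode was given the culture of its top hashtag where that had at least 20 counts and at least 80% of the barcode's hashtag counts, which left out 13.2% of barcodes as mixed or unclear. No other doublet caller was run, and 18.2% of chance cell pairs join cells of 1 culture and escape this rule. All 13439 barcodes were distinct, and both libraries share them. Cells under 500 genes or over 10% mitochondrial UMIs were left out.

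UMIs were summed per culture and divided by the total of all gene UMIs. Total counts were 11376897 to 16014100 UMIs per stimulated culture, against 918920 in rested cells. For ratios a count of 0 was set at a floor of 3 counts, 0.187 to 0.264 CPM in stimulated cultures and 3.26 CPM in rested cells. A gene counted as measured from 10 CPM in either culture and was called at 2-fold. Ratios have exact Clopper-Pearson intervals and levels exact Poisson intervals (scipy 1.17.1, numpy 2.4.6, pandas 2.3.3, Python 3.11.15), and the code was tested on simulated counts. Seurat 5.3.0 in R 4.3.3 ran HTODemux (quantile 0.99) as an alternative. With 1 culture per condition there is no replicate, test or p-value. Members at 20 CPM or more in any culture are given in every culture, the rest by range, and of each further list the 2 highest and 2 lowest at 20 pmol M9C. For the list of other sterol synthesis, SREBP processing and uptake genes, some results are not reported here, its counts and median among them. The members and lists were chosen with earlier results of these data known.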

Additional observations from a re-analysis of the deposited data

Results flagged for a closer look

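Elovl6, the elongase of saturated chains, stood at 35.2, 33.3 and 30.5 CPM at 0.2, 2 and 20 pmol M9C, all above the 30.47 CPM of rested cells, and at 29.9 and 29.3 CPM at 80 and 20 pmol L6F, both below it. It was picked out because the M9C cultures and the L6F cultures lay on opposite sides of the rested one. The difference was not tested, the M9C value at 20 pmol exceeds the rested one by far less than counting error, and 28 UMIs were counted in rested cells.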

How the results depend on the processing

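The 8 comparisons were recomputed under 12 alternatives, of which 1, without cells of other types by markers, was chosen after seeing the data. No paired analysis was possible because each condition was 1 culture, and none could be left out for the same reason. Counting UMIs per cell gave 31 members at least 2-fold higher at 0.2 pmol M9C, 31 at 20 pmol M9C and 0 lower in each of the 5 stimulated cultures, and it reversed Elovl5, with log2 ratios of 1.2663, 1.1394 and 1.3216 at 0.2, 2 and 20 pmol M9C and 1.3945 at 20 pmol L6F, on a scale that includes the larger UMI total of stimulated cells. On that scale Acss2 was also higher in every stimulated culture, by 1.90-fold to 2.53-fold. At least 1000 genes per cell left 47 rested cells, gave 15 to 18 members higher and 0 or 1 lower, and reversed Sqle, with log2 ratios of -0.0448, -0.0267 and -0.0291 at 0.2, 2 and 20 pmol M9C and -0.0215 at 20 pmol L6F. Elovl6, near level with the filter used, lay below rested cells in all 5 stimulated cultures there. Of the calls made with the filter used, 13 to 16 were kept there. Sqle, Dhcr7, Insig1, Stard4, Acaca and Fasn were lost in all 5 cultures and Srebf1 in all but 20 pmol L6F. In each culture 2 or 3 members were added, Srebf2 in all 5 and Acat2, Mvd or Acly in some. A minimum of 50 CPM left 17 or 18 members, with 14 higher at 20 pmol L6F and 0 lower in any culture. The few members at least 2-fold lower varied for L6F: 0 of them with no filter on genes per cell or mitochondrial share, 2 at 80 pmol with a stricter hashtag margin, without cells above 3 times the median UMIs, with the total that leaves out ribosomal protein, mitochondrial, Malat1 and Gm42418 UMIs and without cells of other types, and, at 20 pmol, 1 with HTODemux calls, 1 with thinning and 0 with median-ratio size factors. The cause was not tested. HTODemux calls gave 18 members higher in each culture, losing Dhcr7 and Srebf1 in each, and Hsd17b7 and Acly for L6F and Mvd at 2 pmol M9C. The ratio of the summed members stayed between 1.09 and 1.68 on the log2 scale under every alternative except UMIs per cell. Depth limits the genes with few rested UMIs, such as Fads2, Srebf1 and Hsd17b7.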
